A study of Mus musculus with 52 samples.

Results

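RNA polymerase I (Pol I) machinery genes encode the subunits of the enzyme that transcribes ribosomal RNA genes and the factors that load it there. Accessibility at their promoters was followed in mouse embryonic stem cells (mESCs) by ATAC-seq calibrated with a spike-in (cATAC-seq), before and after deletion of domains of KDM2A and KDM2B. The set was defined by gene symbol and comprised 10 genes, Polr1a, Polr1b, Polr1c, Polr1d, Polr1e, Ubtf, Taf1b, Taf1c, Rrn3 and Ttf1. A promoter was matched for 9 of the 10 among all promoters in the tables, and Taf1b was not analysed here. In unpaired tests no member promoter changed past an adjusted p of 0.05 and a fold change of 1.4 in any of the 4 lines, and the largest difference was a lower Polr1b signal in Kdm2a-CXXC cells.

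In cATAC-seq a transposase inserts sequencing adaptors into open chromatin, and every sample also holds Drosophila SG4 cells as an internal reference for scaling. All 4 lines carry a CRE recombinase that tamoxifen activates, and treated cells received 800 nM 4-hydroxytamoxifen for 96 h. In Kdm2a/b-JmjC fl/fl cells the drug excises the exons of both genes that encode their demethylase (JmjC) domain, so each protein loses its long form and keeps its short form, which starts further downstream. In Kdm2a/b-CXXC fl/fl cells it removes the ZF-CxxC domain, through which KDM2 proteins bind unmethylated CpG islands, from both proteins. That domain is lost from KDM2A alone in Kdm2a-CXXC fl/fl cells, and from KDM2B alone in the Kdm2b-CXXC fl/fl line. The Kdm2a/b-JmjC cells were derived from mice, whereas the Kdm2a-CXXC and Kdm2a/b-CXXC lines were made by CRISPR editing with isolation of homozygous clones, the latter in Kdm2b-CXXC cells. Untreated and treated cells of a line were compared in 3 biological replicates per condition, or 4 in Kdm2a/b-CXXC. No group received tamoxifen without a floxed allele, so drug and deletion cannot be told apart.

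Pol I synthesises the precursor of the large ribosomal RNAs from the tandem rDNA repeats in the nucleolus. UBF, the product of Ubtf, coats the rDNA, and the SL1 complex, which contains TAF1B and TAF1C, recruits the initiation-competent enzyme through RRN3. TTF1 binds terminator elements in the rDNA and stops elongating Pol I. The values here concern the protein-coding genes for these factors, which RNA polymerase II transcribes, and not the rDNA repeats, because reads that mapped more than once had been discarded.

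Most member promoters were rich in CpG, the dinucleotide that the ZF-CxxC domain recognises when unmethylated. Over the 400 bp promoter intervals, 7 of 9 met a definition of CpG-rich (a GC content of 50% or more, with CpGs at 0.6 or more of the number that the base composition predicts), as did 54.6% of all promoters. The Ubtf interval held 53 CpGs at a GC content of 76.8%, and Polr1c held 48 and Rrn3 41, against a median of 24 over all promoters. Ttf1 followed with 30 CpGs, Polr1b with 24, and Polr1d and Taf1c with 23 each. Polr1a, with 21 CpGs and a GC content of 49.5%, and Polr1e, with 19 CpGs at 0.58 of the predicted number, fell outside the definition. The median of the members was 24 CpGs, the same as over all promoters, where the CpG-rich promoters had 37. Their median GC content was 59.75%, beside 60.25% over all promoters. The windows from 200 bases before to 30 bases after the start of Rrn3, Polr1b, Ubtf and Polr1a are shown because they carry the most accessible member, the member with the largest difference, the CpG-densest member and the member that was most often the least accessible. Capitals mark CpGs.
Rrn3: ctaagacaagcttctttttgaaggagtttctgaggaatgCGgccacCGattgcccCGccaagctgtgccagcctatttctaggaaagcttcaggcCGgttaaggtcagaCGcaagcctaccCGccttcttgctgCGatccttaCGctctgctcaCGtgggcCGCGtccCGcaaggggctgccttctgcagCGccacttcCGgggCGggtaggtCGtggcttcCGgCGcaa
Polr1b: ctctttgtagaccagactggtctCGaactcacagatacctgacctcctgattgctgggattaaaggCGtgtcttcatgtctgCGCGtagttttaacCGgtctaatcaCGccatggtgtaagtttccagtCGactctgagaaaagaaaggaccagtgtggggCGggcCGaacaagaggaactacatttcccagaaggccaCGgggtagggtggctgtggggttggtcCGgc
Ubtf: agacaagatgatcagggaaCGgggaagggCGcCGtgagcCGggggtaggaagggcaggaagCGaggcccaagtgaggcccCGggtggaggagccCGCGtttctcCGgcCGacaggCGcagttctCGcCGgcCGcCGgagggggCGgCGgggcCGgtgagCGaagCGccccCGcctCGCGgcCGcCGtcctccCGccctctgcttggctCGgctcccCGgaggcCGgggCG
Polr1a: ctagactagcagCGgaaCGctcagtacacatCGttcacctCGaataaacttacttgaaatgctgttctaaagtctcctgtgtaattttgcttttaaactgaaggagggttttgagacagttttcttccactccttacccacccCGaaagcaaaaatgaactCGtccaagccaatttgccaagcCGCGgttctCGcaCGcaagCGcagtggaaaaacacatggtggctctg
In the GRCm38.p6 (mm10) reference these lie at chr16:13780499-13780728 on the plus strand for Rrn3, chr2:129100796-129101025 on the plus strand for Polr1b, chr11:102317258-102317487 on the minus strand for Ubtf, and chr6:71908853-71909082 on the plus strand for Polr1a. The Ubtf window held 30 CpGs, the Rrn3 window 18, and the other 2 windows 11 each.

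Among short motifs searched on both strands of the 400 bp intervals, the ETS core CCGGAAG stood in 5 of the 9 member promoters, compared with 14.1% of all promoters and 21.7% of the CpG-rich ones. ETS factors are a family of activators that commonly bind promoters of housekeeping genes. The 5 promoters held 7 matches, all within 50 bases of the annotated start, and these are shown with 10 bases on each side on the gene's own strand and the match in capitals (CTTCCGG is the same core read on the other strand).
Polr1c: cacttgacgtCCGGAAGtgaaggacgt
Polr1e: tagaatgtcaCTTCCGGtttttgagtc
Taf1c: ctcgggcgaaCTTCCGGcctgatccgg
Rrn3, first match: tgcagcgccaCTTCCGGggcgggtagg
Rrn3, other match: taggtcgtggCTTCCGGcgcaaggccg
Ttf1, first match: gcgcagctggCCGGAAGtcagtacagt
Ttf1, other match: cctaacaacaCTTCCGGgttggaagac
The stretches lie at chr17:46248071-46248097 (Polr1c, minus strand), chr4:45018624-45018650 (Polr1e, plus strand), chr8:119605217-119605243 (Taf1c, minus strand), chr16:13780684-13780710 and chr16:13780707-13780733 (Rrn3, plus strand), and chr2:29060223-29060249 and chr2:29060257-29060283 (Ttf1, plus strand) of the same reference. The GC box GGGCGG, bound by SP factors, stood in 8 of 9 members, 56.3% of all promoters and 82.7% of the CpG-rich ones, Polr1a being the member without it. CCAAT stood in 3 members (40% of all promoters), the E-box CACGTG in 2 (9.54%) and the YY1 core AAGATGGC in 1 (4.59%). The palindromic NRF1 site, the cAMP response element TGACGTCA, the ZNF143 core ACTACAA and the TATA box TATAAA were in none of the 9, and in 1.32%, 2.56%, 3.82% and 10.4% of all promoters. These are letter matches and were not tested for binding.

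Some member promoters overlap that of a neighbouring gene or lie near its start. The start of Yipf3 lies at -35 bases from the Polr1c start (negative, upstream) on the opposite strand, and the 2 intervals overlap by 366 of 400 bp, so the Polr1c values count largely the same reads as those of Yipf3. Ptcd3 starts at -280 bases from Polr1a on the opposite strand, with an overlap of 110 bp. The noncoding transcript Gm46764 starts at -53 bases from Polr1b and has no interval of its own in the tables, and Lnx2 starts at -774 bases from Polr1d without overlap. For Taf1c the centre of the deposited interval lies at -35 bp from the annotated start on the gene's own strand (upstream).

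The 26 ATAC libraries held 1.49 to 3.03 M promoter reads each (M, 1000000), the middle promoter had 58 to 108 reads, and a member promoter received 72 to 316 reads in a library. The promoters of embryonic stem cell markers had a median percentile of 69.2 among all promoters, with 6 of 10 above the middle, and those of other cell types (16 promoters) had 29.3, with 1 above it. Among the stem cell markers, Pou5f1 lay below the middle, at a median percentile of 48.3, and Nanog just above it, at 55.8. Both Esrrb promoters (18.4 and 41.2) and Tdgf1 (48) were also below it. The promoter intervals of Kdm2a and Kdm2b lie at start sites rather than over the removed exons, so these files hold no check of the deletions. Promoters as a whole were lower after tamoxifen in Kdm2a/b-JmjC and Kdm2a-CXXC cells on the calibrated scale (median log2 fold changes of -0.21 and -0.18) and higher in Kdm2a/b-CXXC and Kdm2b-CXXC cells (0.09 and 0.10). In Kdm2b-CXXC cells the calibrated totals differed widely between replicates: the median promoter had 71.5 to 118 calibrated reads in untreated and 78.9 to 127 in treated libraries.

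Pol I machinery promoters were moderately accessible in every line. In 233 of 234 values a member lay above the median promoter of its own library, and its percentile ranged from 49.8 to 89.5. Together the 9 promoters took between 0.0601% and 0.0744% of promoter reads, where 9 average promoters would take 0.0436%. Rrn3 was the most accessible member, first in 15 of 26 libraries, with a median percentile of 83.4 and a median signal 2.29 times that of the middle promoter. Polr1b, the gene for the second-largest subunit, followed with a median percentile of 77.8 and was higher than Polr1c in 19 of 26 libraries. Polr1c and Ttf1, at 75 and 75.5, exchanged places, each being the higher in 13 libraries. Polr1e (69.9), Polr1d (68.1), Taf1c (67.8), Ubtf (67.6) and Polr1a (66) formed the lower end, and within Polr1d, Taf1c, Ubtf and Polr1a each neighbour exceeded the next in only 12 to 14 of 26 libraries, so these 4 could not be ordered. Polr1a, which encodes the largest and catalytic subunit, was the least accessible member in 9 libraries and Ubtf in 8. The order of levels differed from the order of CpG content, in that Ubtf had the most CpGs and one of the lowest signals. These levels are read per interval of equal length, and tables of different lines were calibrated separately, so they are set side by side only as ranks or shares within a library.

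**Figure D1:**
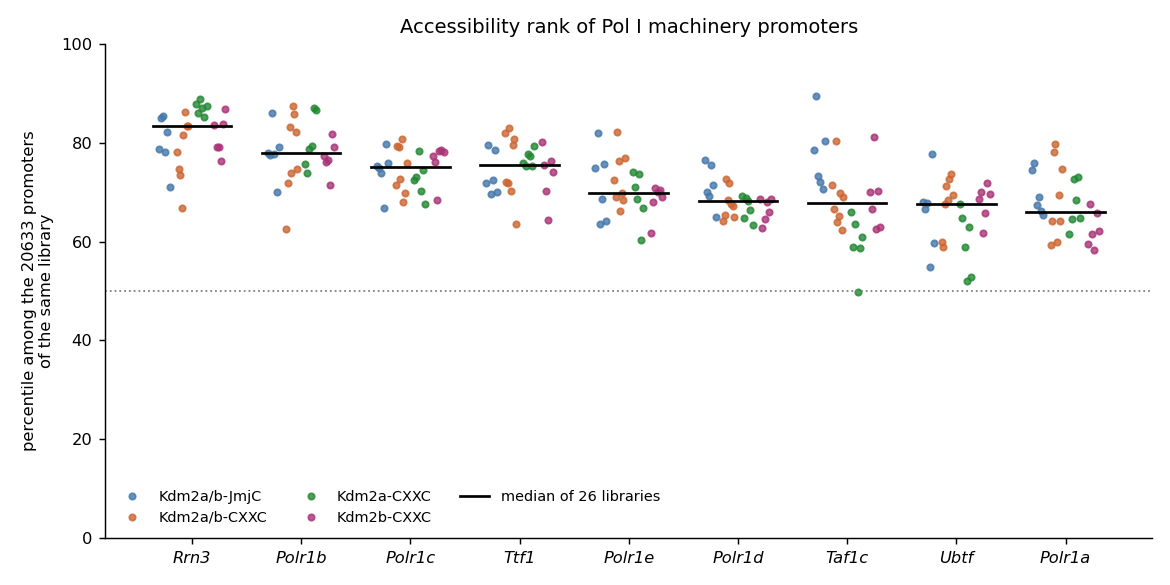
Percentile of each Pol I machinery promoter among all promoters of the same library (y axis, 0 to 100), with 1 point per library (26 per gene, treated and untreated together) coloured by line and a black bar at the median. Rrn3 and Polr1b lie highest, at medians of 83.4 and 77.8, and Taf1c and Ubtf have the widest spread downward, reaching 49.8 and 51.9.

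Shares of the untreated libraries differed most between lines for Taf1c and Ubtf. For Taf1c, the SL1 subunit gene, reads per M promoter reads were 35, 49.3 and 52.1 in Kdm2a-CXXC cells, beside 57.7, 69.8 and 58.9 in the Kdm2b-CXXC line. They were 61.8, 68.8, 57.5 and 67.6 where both ZF-CxxC domains can be removed, and 70, 68.4 and 86.8 in the JmjC line. All Kdm2a-CXXC libraries lay below all libraries of the other lines. Chromosome 8, which carries Taf1c, lay on the same side of the mean of the lines as Taf1c in every untreated line except Kdm2b-CXXC. The median of its 792 promoters (log2, from that mean) was 0.27 in Kdm2a/b-JmjC and -0.19 in Kdm2a-CXXC cells, where Taf1c stood at 0.20 and -0.54. The chromosome median was -0.085 in Kdm2a/b-CXXC and 0.034 in Kdm2b-CXXC cells, where Taf1c stood at -0.026 and -0.069. The part of the chromosome-wide share in the Taf1c values was not tested. For Ubtf the shares were 38.2, 56.2 and 39.2 in Kdm2a-CXXC cells, beside 45, 81.3 and 52.6 in the JmjC line. They were 66.5, 73.2, 74.2 and 68.3 in the double and 62.4, 72.2 and 68.9 in the KDM2B single CXXC line. These last 2 lines lay above all Kdm2a-CXXC libraries, while Kdm2a/b-JmjC overlapped with every line. The 1242 promoters on chromosome 11, where Ubtf lies, differed little between untreated lines (-0.05 to 0.06 around the mean of the lines). Other members also lay apart between some lines. Rrn3 had 98.8 to 107 in Kdm2a-CXXC cells, above the JmjC (69.4 to 90.4) and double CXXC (88 to 97.4) libraries. Polr1c had 83 to 83.6 in Kdm2b-CXXC cells, above Kdm2a-CXXC (62.6 to 75.4). The share of all promoters that lie apart between lines was not counted, so these separations are not read as particular to the members. These shares are a description without a test.

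**Figure D2:**
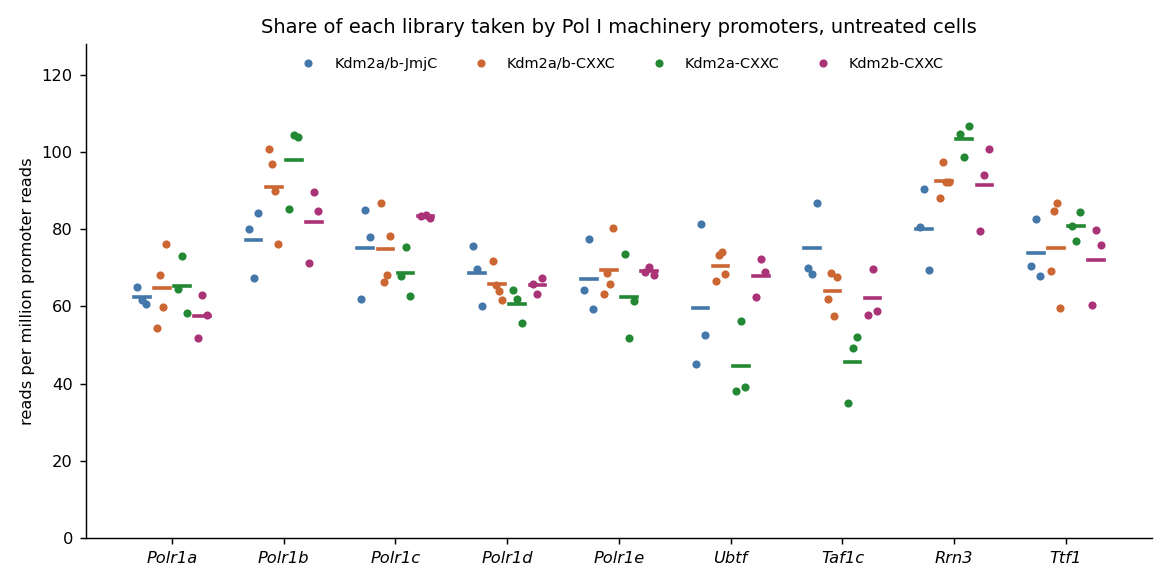
Reads per M promoter reads (M, 1000000) (y axis) at the 9 promoters in untreated cells, with 1 point per library coloured by line and a bar at the mean. Kdm2a-CXXC libraries lie lowest for Taf1c (35 to 52.1) and reach lowest for Ubtf (38.2), whereas for the other genes the lines lie closer together.

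Kdm2a/b-JmjC cells, in which tamoxifen removes the KDM2 long forms, were compared before and after treatment. None of the 9 Pol I promoters changed, in a comparison where 13 of 17174 promoters (0.0757%) did, all of them lower. That count of 13 was 0 to 607 on leaving out 1 library (607 without treated replicate 1, 0 without untreated replicate 1 or 2), 0 after TMM scaling and 114 by edgeR, and none of them was a member. Member log2 fold changes ran from -0.21 (Ttf1) to 0.01 (Taf1c) with a median of -0.08, beside -0.21 over all promoters. All 9 lay above that median, Ttf1 only just (-0.2089 against -0.2097). The position of the set relative to the median was not tested, so the count is not read as a result about the members. Ttf1 had 128, 157 and 122 calibrated reads in untreated and 119, 126 and 105 in treated libraries, which overlap. Its log2 fold change was -0.21 ± 0.17 (SE), with an adjusted p of 0.462 by limma, the smallest among the members. Polr1c and Polr1d, which encode subunits shared with Pol III, gave -0.20 ± 0.16 and -0.16 ± 0.17. At Rrn3 the values were 146, 171 and 125 before and 140, 144 and 152 after treatment, a log2 fold change of -0.01 ± 0.16. Ubtf varied most, with 81.3, 154 and 94.4 untreated reads against 108, 92.4 and 100 treated reads. The treated values fell inside the untreated spread. Polr1a (-0.02), Polr1b (-0.04) and Polr1e (-0.08) were also close to 0. No 95% interval reached beyond a 1.45-fold lower or a 1.25-fold higher signal, and 3 of the 9 intervals reached past 1.4-fold. No member had an unadjusted p under 0.05 or groups without overlap. Among all promoters of this line the former was held by 20.3% on the lower and 0.262% on the higher side, and the latter by 23.2% and 0.908%.

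In Kdm2a/b-CXXC cells, where tamoxifen removes the ZF-CxxC domain from both proteins, 6 members had a positive and 3 a negative log2 fold change. None passed the thresholds. No promoter did in this line (0% of 16413 by limma, DESeq2 or edgeR), and 764 had an unadjusted limma p under 0.05 (778 by edgeR and 740 by DESeq2). The median of the members was 0.15, beside 0.09 over all promoters. Polr1e, which encodes a subunit of the Pol I-specific heterodimer, had 92.8, 108, 103 and 117 calibrated reads without and 148, 113, 133 and 105 with tamoxifen. The groups overlap, and the log2 fold change was 0.24 ± 0.19. Rrn3 had 129, 152, 144 and 135 untreated reads and 167, 128, 110 and 85.1 treated reads, so treated libraries lay both above and below the untreated ones. Its log2 fold change was the lowest of the members in this line, -0.23 ± 0.19 (adjusted p of 0.996). Polr1b had 148, 151, 141 and 111 reads before and 117, 121, 136 and 99.5 after treatment, a log2 fold change of -0.22 ± 0.19. Ubtf, at -0.14, was the third member below 0, and Polr1a (0.19), Polr1c (0.15), Polr1d (0.07), Taf1c (0.21) and Ttf1 (0.21) lay above it. The intervals allowed changes of up to 1.52-fold lower and 1.53-fold higher, and 8 of 9 reached past 1.4-fold. No member had an unadjusted p under 0.05 (1.07% of all promoters lower and 3.58% higher), and the groups overlapped at all 9 members (0.597% and 1.8% of promoters had groups apart).

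**Figure D3:**
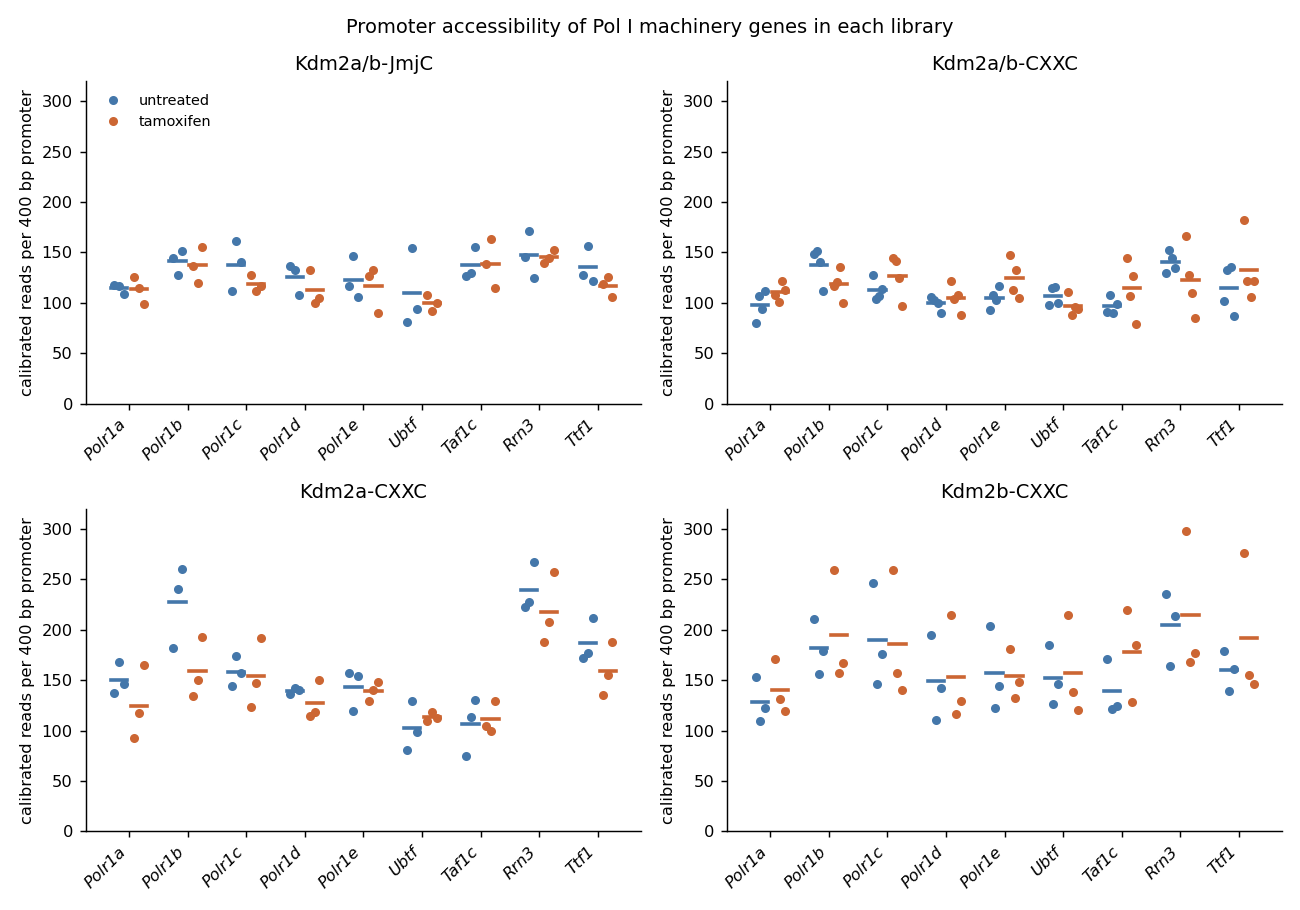
Calibrated reads per 400 bp promoter (y axis) for each Pol I machinery gene in the 4 lines, with 1 point per library (untreated blue, tamoxifen orange) and a bar at the group mean (3 libraries per group, 4 in Kdm2a/b-CXXC). Treated and untreated points overlap for every gene in every line, and the widest separation of means is Polr1b in Kdm2a-CXXC (227 against 159).

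The largest difference of the set was found in the line that loses the ZF-CxxC domain of KDM2A alone. Polr1b, in Kdm2a-CXXC cells, had 182, 241 and 260 calibrated reads in untreated libraries and 134, 150 and 193 in treated ones. The highest treated library lay above the lowest untreated one, and the other libraries of the 2 groups were apart. These 2 overlapping libraries carry different replicate numbers. Set side by side by number, the treated library was the lower each time (182 and 134, 241 and 150, 260 and 193). The means were 227 ± 41 (SD, n = 3) and 159 ± 30.4, and the log2 fold change was -0.51 ± 0.19 (95% interval -0.88 to -0.15). The unpaired limma p was 0.00608 before and 0.581 after adjustment over 17727 promoters, so the difference did not pass the threshold in that test. The outcome differed with a replicate block, which is given with the alternatives at the end. An unadjusted p under 0.05 with a lower signal was held by 8% of all promoters in this line and by 1 of the 9 members, and one with a higher signal by 0.395% and by no member. On leaving out 1 library the log2 fold change ranged from -0.67 to -0.40. The unadjusted p then ranged from 0.000315 (without treated replicate 3) to 0.0641, and was over 0.05 when untreated replicate 2 (0.0511) or 3 (0.0641) was left out. Without the block no promoter passed both thresholds (0%), by limma, edgeR or DESeq2, and 1488, 1463 and 1193 had an unadjusted p under 0.05. The stem cell gene Pou5f1 was also lower in these cells at an unadjusted p under 0.05, as were 8% of all promoters. The stem cell markers together had a median log2 fold change of -0.17, beside -0.18 over all promoters. The part of Pou5f1 in the Polr1b value was not tested.

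The other members of Kdm2a-CXXC cells stood around a median of -0.14, against -0.18 over all promoters. Polr1a had 138, 168 and 146 reads before and 92.4, 117 and 165 after treatment, a log2 fold change of -0.30 ± 0.20. Treated replicates 1 and 2 fell under the untreated range, and replicate 3 within it. Ttf1 went from 187 ± 21.6 to 159 ± 26.6 (-0.24 ± 0.19), with overlapping groups. Rrn3, the most accessible member here too, had 223, 228 and 267 reads without and 188, 208 and 258 with tamoxifen, a log2 fold change of -0.14 ± 0.18. Polr1d (-0.14), Polr1c (-0.06) and Polr1e (-0.03) were also below 0, and Ubtf (0.17) and Taf1c (0.09) above it. Of the 9 intervals, 7 reached past 1.4-fold. The groups overlapped at every member, whereas 13.4% of all promoters had treated libraries wholly below and 1.12% wholly above the untreated ones.

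In Kdm2b-CXXC cells no member passed the thresholds, nor did any promoter by unpaired limma, edgeR or DESeq2 (0% of 17930). In that order of tests, 120, 107 and 104 promoters had an unadjusted p under 0.05. The standard error of a member's log2 fold change was 0.37, and the intervals allowed changes of up to 1.71-fold lower and 2.08-fold higher. Taf1c had 171, 122 and 125 calibrated reads in untreated and 220, 128 and 185 in treated libraries, which overlap. The log2 fold change of 0.34 ± 0.37 was the largest positive value of the set, with an adjusted p of 1. Replicate 1 was the highest library of both groups at every member, and treated Rrn3 reached 298 there. The members' median was 0.03, beside 0.10 over all promoters. It ranged from -0.16 (without treated replicate 1) to 0.20 (without untreated replicate 1) on leaving out 1 library, and was -0.069 after TMM scaling, so no direction is read from it. The other 8 lay between -0.05 (Polr1c) and 0.21 (Ttf1). No member had an unadjusted p under 0.05 (0.151% of promoters lower, 0.519% higher) or groups apart (0.446% lower, 2.13% higher).

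**Figure D4:**
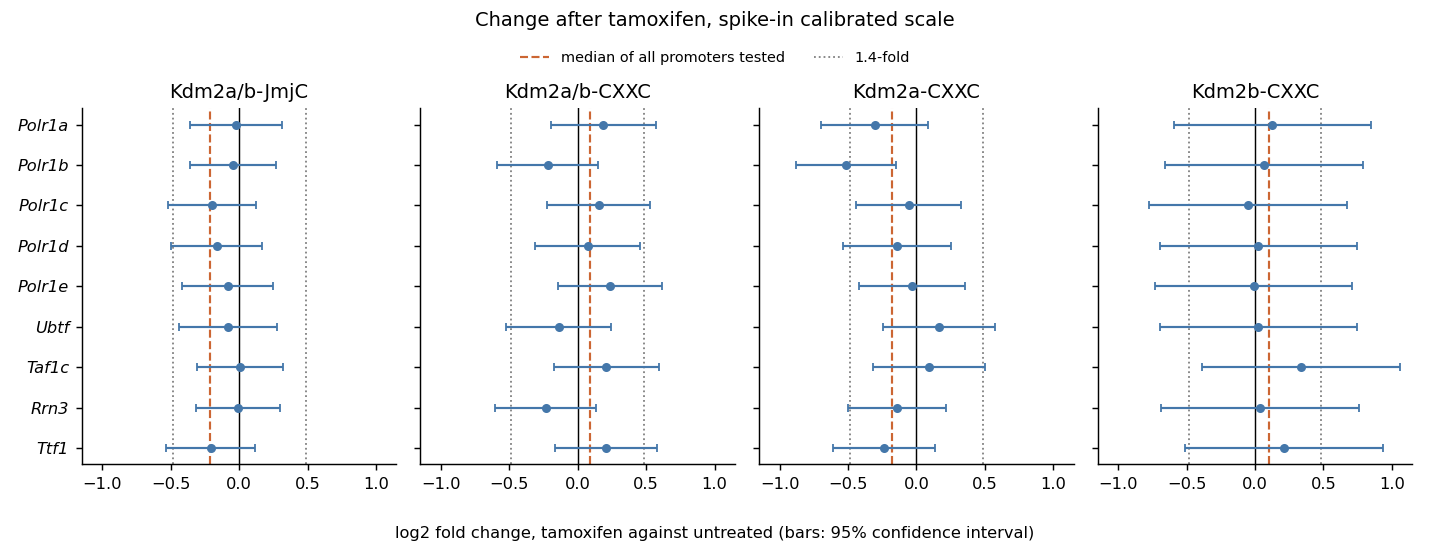
Log2 fold change of each promoter after tamoxifen (x axis, spike-in calibrated scale) with its 95% confidence interval, in 4 panels for the 4 lines. The dashed orange line is the median of all promoters tested, the dotted lines mark 1.4-fold, and Polr1b in Kdm2a-CXXC cells (-0.51) is the one interval that does not include 0.

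Because calibration moved all promoters of a library together, the members were also compared relative to other promoters, by TMM scaling (a trimmed mean over all promoters, set close to no change). The median standard error of a member fell to 0.13 in Kdm2b-CXXC cells on this scale. No member passed the thresholds in any line, where 17 promoters did in Kdm2a/b-CXXC, 1 in the Kdm2b-CXXC line and 0 in the remaining lines. Of the 36 fold changes, 16 had the opposite sign to the calibrated ones, so a direction is given here only relative to the other promoters.

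Relative to other promoters, Polr1b had its lowest fold changes in Kdm2a-CXXC and Kdm2a/b-CXXC cells, neither past the adjusted threshold. In Kdm2a-CXXC cells its reads per M promoter reads were 85.3, 104 and 104 before and 76.4, 73.5 and 82.9 after treatment, and the groups did not overlap, as for 5.41% of all promoters in that direction. The relative log2 fold change was -0.34 ± 0.12, with an unadjusted limma p of 0.00616 (adjusted 0.674). In Kdm2a/b-CXXC cells the shares were 101, 96.8, 89.8 and 76.3 before and 57.5, 71.8, 90.5 and 75 after treatment. These overlap, and the log2 fold change was -0.30 ± 0.13 (unadjusted p of 0.017, adjusted 0.384). Polr1b gave 0.16 ± 0.15 in the JmjC line and -0.04 ± 0.12 after loss of the KDM2B domain alone.

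Rrn3 had its lowest relative fold change in Kdm2a/b-CXXC cells, short of the adjusted threshold. Its shares were 88, 97.4, 92.2 and 92.2 reads per M in untreated and 81.8, 76.4, 73 and 64.1 in treated libraries, without overlap, as for 2.73% of promoters in that direction. The log2 fold change was -0.32 ± 0.12 (unadjusted p of 0.00949, adjusted 0.322), while in Kdm2a-CXXC cells it was 0.03 ± 0.11. Ubtf in Kdm2a-CXXC cells had 38.2, 56.2 and 39.2 before and 62.5, 57.9 and 48.5 after treatment, which overlap (0.34 ± 0.16, unadjusted p of 0.0419, adjusted 0.792). In Kdm2a/b-CXXC cells it was -0.23 ± 0.14. Polr1c had non-overlapping shares in Kdm2b-CXXC cells, 83.4, 83.6 and 83 before and 81.1, 79.1 and 66.6 after, where 6.1% of promoters did so in that direction (-0.15 ± 0.12, unadjusted p of 0.212). An unadjusted p under 0.05 on the lower side was held by 4.97% of promoters in the double CXXC line, against 3.51% for Kdm2a-CXXC, and on the higher side by 4.67% and 2.69%. In Kdm2b-CXXC cells (4.36% lower, 3.43% higher) and in the JmjC line (3.01% lower, 2.62% higher) no member did so. Apart from the 3 members named, shares overlapped between groups. Shares lay apart for 5.3% of promoters (lower) and 5.51% (higher) in the JmjC line, and on the higher side for 6.32% in Kdm2b-CXXC cells, 5.77% after loss of the KDM2A domain and 2.2% after loss of both.

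**Figure D5:**
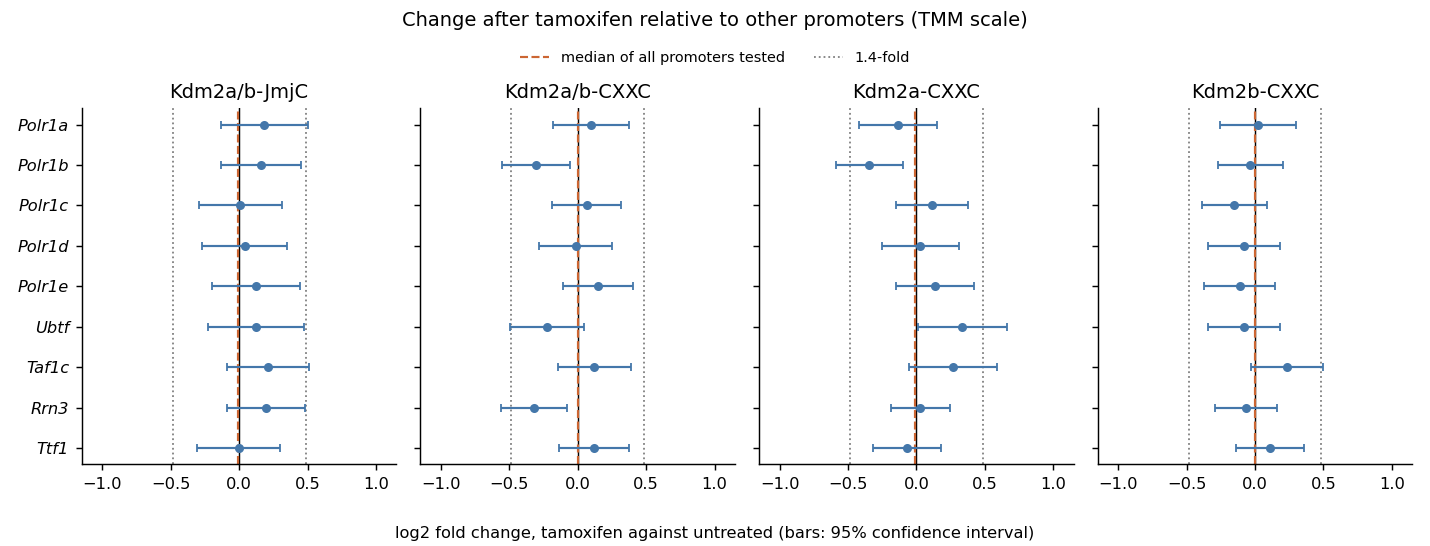
The same fold changes after TMM scaling, which expresses each promoter relative to the others (x axis, log2 fold change, bars 95% confidence interval). In the double CXXC line the intervals of Polr1b and Rrn3 (-0.30 and -0.32) exclude 0, as do those of Polr1b and Ubtf (-0.34 and 0.34) for Kdm2a-CXXC, none past the adjusted threshold.

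Whether the response of a Pol I promoter differed between lines was tested directly in 1 fit over all 26 libraries. Of 54 differences (9 promoters in 6 pairs of lines), none passed an adjusted p of 0.05 or an unadjusted p of 0.05, and no promoter passed the adjusted threshold in any pair (0%), with 279 to 1488 at an unadjusted p under 0.05. These were 7.58%, 1.48% and 5.32% of promoters for the JmjC line against the double and then the KDM2A and KDM2B single CXXC lines, 5.08% and 1.42% for the double line against those single lines, and 3.63% between the single lines. The smallest p belonged to Polr1b, whose effect in Kdm2a-CXXC minus that in Kdm2b-CXXC cells was -0.58 ± 0.33 (95% interval -1.22 to 0.06, unadjusted p of 0.0763, adjusted 0.856). On the TMM scale 5 of 54 had an unadjusted p under 0.05 and none an adjusted one. In the same order of pairs, 7.86%, 5.04%, 5.23%, 6.29%, 4.64% and 3.98% of all promoters had an unadjusted p under 0.05 on that scale. The effect in the JmjC line minus that in Kdm2a/b-CXXC was 0.52 ± 0.17 for Rrn3 (adjusted p of 0.353) and 0.47 ± 0.18 for Polr1b. Polr1b also had 0.50 ± 0.19 for the JmjC line minus Kdm2a-CXXC. For the double minus the KDM2A single CXXC line the values were -0.57 ± 0.21 at Ubtf and -0.36 ± 0.17 at Rrn3. Differences of Polr1b from Kdm2b-CXXC were not among these 5. They were -0.30 ± 0.19 for Kdm2a-CXXC and -0.26 ± 0.18 for the double line (unadjusted limma p of 0.124 and 0.144). Pairs that include the same line share its libraries.

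Neighbours whose intervals overlap a member's were compared with it. Yipf3, whose interval largely coincides with that of Polr1c, had log2 fold changes of -0.22, 0.13, -0.09 and -0.03 in the 4 lines (in the order in which they were introduced), where Polr1c had -0.20, 0.15, -0.06 and -0.05. Ptcd3, with the smaller overlap, had -0.0040, 0.16, -0.33 and 0.27, where Polr1a had -0.02, 0.19, -0.30 and 0.13.

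In related gene groups no promoter passed the limma thresholds in either direction in any line. Over the 4 lines together, an unadjusted p under 0.05 was held on the lower side by 4 of 44 tests of other Pol I and SL1 genes, 4 of 48 of rDNA chromatin regulators, 5 of 80 of processing factors, 4 of 40 of Pol III and 2 of 30 of Pol II subunits, and on the higher side by 2 tests of processing factors. For stem cell markers it was 3 of 39 and for other cell types 2 of 46, all lower. Over all promoters the shares were 7.38% on the lower side, and 796 of 69244 tests on the higher side, so these counts are not read as results about the groups. Among 11 other Pol I and SL1 genes the median log2 fold changes were -0.11, 0.15, -0.19 and 0.08 in the 4 lines, beside -0.21, 0.09, -0.18 and 0.10 over all promoters. Twistnb, which encodes a Pol I stalk subunit, had the smallest p of that list in both Kdm2a/b-JmjC and Kdm2a-CXXC cells. It went from 129 ± 5.37 to 95.5 ± 7.17 calibrated reads (SD) in the former (log2 fold change -0.43 ± 0.17, SE, adjusted p of 0.147) and from 150 ± 5.49 to 107 ± 15.3 in the latter (-0.49 ± 0.20, adjusted p of 0.581). Of 12 promoters of rDNA chromatin regulators, 4 were lower in the JmjC line at an unadjusted limma p under 0.05, as were 20.3% of all promoters. Baz2a, the large subunit of the nucleolar remodelling complex NoRC, had the smallest p among them (-0.48 ± 0.19, adjusted p of 0.141). Among 20 genes for pre-rRNA processing and nucleolar factors the medians were -0.22, 0.15, -0.18 and 0.10. Their smallest p in Kdm2a/b-CXXC cells was that of Utp4, a component of the small-subunit processome (0.45 ± 0.19, adjusted p of 0.996). Subunits of Pol III (10 promoters) had medians of -0.22, 0.10, -0.22 and 0.06 and those of Pol II (7 or 8 promoters tested) -0.30, 0.08, -0.06 and 0.21. In accessibility the Pol I members, at a median percentile of 69.9, stood beside 73.5 for the other Pol I and SL1 genes, 73.4 for rDNA chromatin regulators, 83.8 for processing factors, 84.3 for Pol III and 77.8 for Pol II subunits. Stem cell markers had medians of -0.11, 0.05, -0.17 and 0.06 and markers of other cell types -0.31, -0.05, -0.12 and 0.22, and their part in the member values was not tested. Pou5f1, which encodes the pluripotency factor OCT4, went from 90 ± 12.7 to 54.7 ± 8.01 calibrated reads in Kdm2a-CXXC cells. The groups did not overlap, as for 13.4% of all promoters in that direction. Its log2 fold change was -0.71 ± 0.23 (adjusted limma p of 0.581) and -0.54 after TMM scaling. It was 1 of 2 markers of 10 that were lower there at an unadjusted limma p under 0.05, as were 8% of all promoters. Nanog, another pluripotency factor gene, went from 101 ± 25.3 to 70.6 ± 12.7 in the double CXXC line, with overlap (-0.49 ± 0.21, adjusted limma p of 0.996; -0.58 after TMM scaling). The 10 stem cell marker promoters summed to 751 to 812 reads per M in untreated and 743 to 800 in treated Kdm2a-CXXC libraries, and to 592 to 686 and 557 to 644 in the double CXXC line. The 16 promoters of other cell types summed to 198 to 229 and 218 to 235 in the former, and to 252 to 306 and 233 to 268 in the latter. No marker promoter of either list was at 0 in all libraries of a group.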

How the data were processed

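Calibrated ATAC-seq of 26 libraries was analysed. The other 26 of 52 samples, input genomic DNA, were not analysed here. The labels of 2 of these conflict: treated Kdm2a/b-CXXC replicates 2 and 4 are titled as tamoxifen but listed as untreated. Such samples enter the authors' calibration of that line, and the effect of the conflict was not tested. The authors aligned reads with Bowtie 2 to concatenated mm10 and dm6 genomes, removed multiply mapped reads and PCR duplicates, counted mouse reads over 400 bp promoter intervals and divided them by Drosophila size factors corrected for the mixing ratio in the genomic DNA. The 4 deposited tables, 1 per line, hold this signal (calibrated reads). Further columns hold the authors' DESeq2 comparisons and were not used.

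Steps between values gave back the reads: 100% of values were whole within 0.001 of a read, with size factors of 0.718 to 1.41. Counting error alone understates the spread between libraries. RefSeq identifiers were matched to symbols for 99.1% of promoters. The main test was limma 3.58.1 (R 4.3.3) with a mean-variance trend, two-sided, on log2(calibrated reads + 1), per line, over promoters kept by filterByExpr of edgeR 4.0.16, with Benjamini-Hochberg adjustment over all of them; fold changes understate those of low promoters. A change needed an adjusted p under 0.05 and a fold over 1.4, as in the study. Differences between lines came from 1 limma fit of 8 groups. The scripts were tested on simulated data. Alternatives were TMM, median-of-ratios and total-read scaling, edgeR and DESeq2 1.42.0 on the recovered reads (by edgeR, 114 promoters of Kdm2a/b-JmjC passed and 0 of the other lines), no filter, pseudocounts of 0.5 and 8, a replicate block and leaving out each library.

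The members, lists and named-gene rule (every member, the promoter with the smallest p of another list in a line, and neighbours within 1000 bp) were chosen with earlier results of these data known. Older symbols Twistnb, Cd3eap and Znrd1 stand for Polr1f, Polr1g and Polr1h. Promoter sequences are from the RefSeq GRCm38.p6 genome, with 1-based coordinates.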

Additional observations from a re-analysis of the deposited data

How the results depend on the processing

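No Pol I machinery promoter passed the thresholds under any alternative except the replicate block, where Polr1b in Kdm2a-CXXC did (1 promoter, log2 fold change -0.51, limma adjusted p of 0.0228). The shared replicate numbers did not meet the criterion for pairing, a correlation over 0.1 in every pair: same-numbered deviations from group means correlated at -0.0197 to 0.104, and 10 of 13 pairs correlated best with their own number, a hint from the data and not from the design. These correlations over promoters do not see a shift of a whole library. In Kdm2a-CXXC the median promoter had 75.5, 82.2 and 87.1 untreated and 61, 71.6 and 81.2 treated reads in order of number. Both groups of that line, which holds the Polr1b call, thus rose with the number. In Kdm2b-CXXC the median promoter had 118, 71.5 and 85.2 untreated and 127, 78.9 and 84.9 treated reads. With the block, 62, 188 and 5 promoters passed in Kdm2a/b-JmjC, Kdm2a-CXXC and the Kdm2b-CXXC line.

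Scaling set the direction of many members, and the cause was not tested. TMM, median-of-ratios and total-read scaling turned the sign of 16, 16 and 17 of 36 fold changes. In the following, values are in that order of scalings. In Kdm2a/b-JmjC 0 promoters passed under each, the members' median was 0.12, 0.13 and 0.13, and single values were 0.19, 0.19 and 0.19 (Polr1a), 0.16, 0.16 and 0.17 (Polr1b), 0.0074, 0.0099 and 0.016 (Polr1c), 0.040, 0.042 and 0.048 (Polr1d), 0.12, 0.12 and 0.13 (Polr1e), 0.12, 0.13 and 0.13 (Ubtf), 0.20, 0.20 and 0.21 (Rrn3), with Ttf1 at 0.0042 under total reads. In Kdm2a/b-CXXC 17, 17 and 18 promoters passed and Polr1d was -0.015, -0.016 and -0.021. In Kdm2a-CXXC the median was 0.030, 0.034 and 0.044, with Polr1c at 0.11, 0.12 and 0.13, Polr1d at 0.028, 0.033 and 0.043, Polr1e at 0.14, 0.14 and 0.15, and Rrn3 at 0.030, 0.034 and 0.044. In Kdm2b-CXXC 1 promoter passed under each, with Polr1b at -0.036, -0.039 and -0.029, Polr1d at -0.079, -0.082 and -0.071, Ubtf at -0.080, -0.083 and -0.073, and Rrn3 at -0.069, -0.072 and -0.062. In Kdm2a/b-JmjC 114 promoters passed by edgeR and 71 with a pseudocount of 8.

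Leaving out 1 library gave 0 to 607 promoters in Kdm2a/b-JmjC (607 when tamoxifen replicate 1 was left out, 59 for untreated replicate 3, 3 for tamoxifen replicate 3, and 0 for untreated replicate 1 or 2), 0 to 8 in Kdm2a/b-CXXC (5 and 8 without tamoxifen replicates 1 and 4) and 0 to 43 in Kdm2a-CXXC (43 without tamoxifen replicate 3). Member values that crossed 0 ranged in Kdm2a/b-JmjC from -0.10 to 0.073 (Polr1a), -0.14 to 0.049 (Polr1b), -0.19 to 0.091 (Polr1e), -0.27 to 0.19 (Ubtf), -0.12 to 0.14 (Taf1c) and -0.12 to 0.11 (Rrn3), and in Kdm2a/b-CXXC from -0.00048 to 0.15 (Polr1d). In Kdm2a-CXXC they ranged from -0.22 to 0.088 (Polr1c), -0.16 to 0.035 (Polr1e) and -0.14 to 0.26 (Taf1c), and in Kdm2b-CXXC from -0.024 to 0.26 (Polr1a), -0.16 to 0.20 (Polr1b), -0.32 to 0.16 (Polr1c), -0.24 to 0.23 (Polr1d), -0.17 to 0.20 (Polr1e), -0.22 to 0.19 (Ubtf), -0.23 to 0.19 (Rrn3) and -0.078 to 0.38 (Ttf1). Between lines, 0 of 54 member differences passed under any setting run. Over all promoters and pairs of lines, 38 differences did with the block.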
